A study of Rattus norvegicus with 8 samples.

Results

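Ribosomal protein genes of the cytosolic ribosome were examined in rat liver, by probe sets annotated to exactly 1 gene whose symbol starts with Rpl or Rps followed by a digit, or is Rplp0, Rplp1, Rplp2 or Rpsa. The 14 probe sets of the Rps6k kinases, which are not part of the ribosome, were left out. The rule found 57 of the 31042 non-control probe sets, for 50 of the 14217 genes that had such a probe set: 38 probe sets of 34 large-subunit genes and 19 of 16 small-subunit genes. Of the 57 probe sets, 34 varied between the rats, by a range above 0.01 log2 over 8 arrays, and these 34 stand for 32 genes. The other 23 held the same deposited value on every array and carry no measurement of a difference.

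The study measured liver RNA on 3' expression arrays, 1 array per rat. All animals were male Sprague-Dawley rats (Jcl:SD) aged 7 weeks. For 2 weeks both groups ate the rodent chow CRF-1, to which, per the series' design text, cholesterol (10 g per kg) and cholic acid (5 g per kg) had been added, and the chow of the treated group also held viable freeze-dried Lactobacillus brevis 119-2 (10 g per kg), a lactic acid bacterium from turnip. The design text gives 11 rats per group, and the arrays are of 4 control rats and 4 L. brevis rats, numbered 1 to 4 within each group as labelled. The controls' source label names CRF-1 without cholesterol, and the design text was followed. Both groups therefore carry the cholesterol and cholic acid load, and neither is a rat on an ordinary diet.

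Each cytosolic ribosome joins a small subunit, which reads the mRNA, to a large subunit, which forms peptide bonds. Each subunit holds ribosomal RNA and one set of proteins, mostly present in a single copy, so cells make these proteins in balance. In mammals their mRNAs begin with a C followed by a run of pyrimidines, the terminal oligopyrimidine or TOP motif, through which growth signals acting on mTORC1 control their translation more than their amount. Liver, which makes most plasma proteins, holds large numbers of ribosomes.

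The start regions of 8 members are shown because these are the genes on which the diet comparison below turns and for which a start region was given. Each line gives the 60 bases from 40 before to 20 after the annotated start of transcription, 5′ to 3′ on the transcript strand, from RefSeq on build GRCr8, with runs of at least 8 C or T in capitals.
Rpl14 (chr8:129163580-129163639, + strand): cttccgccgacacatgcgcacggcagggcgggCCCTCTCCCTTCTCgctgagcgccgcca
Rpl6 (chr12:41011671-41011730, - strand): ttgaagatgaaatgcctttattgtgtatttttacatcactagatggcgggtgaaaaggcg
Rpl24 (chr11:58128386-58128445, - strand): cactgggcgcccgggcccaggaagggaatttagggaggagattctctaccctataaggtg
Rpl13a (chr1:104748894-104748953, - strand): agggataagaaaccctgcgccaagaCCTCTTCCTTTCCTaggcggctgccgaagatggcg
Rpl19 (chr10:83519024-83519083, + strand): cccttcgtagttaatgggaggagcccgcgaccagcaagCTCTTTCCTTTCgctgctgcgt
Rps16 (chr1:92770618-92770677, + strand): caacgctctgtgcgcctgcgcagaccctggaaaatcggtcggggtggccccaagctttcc
Rps28 (chr7:15311314-15311373, - strand): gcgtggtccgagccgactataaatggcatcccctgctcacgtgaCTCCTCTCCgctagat
Rpsa (chr8:128728839-128728898, + strand): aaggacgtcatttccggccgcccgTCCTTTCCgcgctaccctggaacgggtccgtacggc

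A run of at least 8 C or T in this window was present for 29 of the 41 member genes with a start region, 70.7%, against 23.8% of 18999 protein-coding start regions of the same length. A run anywhere in the window was counted, before or after the start, so the count is not one of TOP motifs. The longest runs among the 8 shown are those of Rpl14 and Rpl13a, 14 bases each. The runs of Rpl13a and Rpsa end before the annotated start and so lie outside the mRNA as annotated. Rps16, Rpl24 and Rpl6 have no run of at least 8 C or T in these letters. This says nothing of their mRNAs where the annotated start differs from the one used in liver. The letters CTTTC, the core of a pyrimidine tract, lay in the same window on either strand for 19 of 41 members, 46.3%, against 13.8% of all; where they fall inside a run on the transcript strand, the same bases count for both. Over the whole 300 bases of each start region and on both strands, CCGGAAG, a motif of ETS-family factors, was present for 10 members, 24.4% against 11.2%. CACGTG, the E-box that Myc binds, was present for 3 members, 7.32% against 7.26%, and TATAAA for 6, 14.6% against 13.1%.

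Ribosomal protein probe sets varied more often than probe sets in general, 59.6% against 20.4%. That gap was absent at high signal. Among probe sets with a mean above 10 log2, 30 of 39 members varied, 76.9%, and so did 962 of all 1251, also 76.9%. At or below that level 4 of 18 members varied, and the share of all probe sets there was not counted. The large subunit had 24 varying probe sets, for 23 genes, and the small subunit 10, for 9 genes.

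The 23 probe sets with 1 value on all arrays ranged from 5.72 to 12.51 log2, so both dim and bright ones were among them. The large-subunit probe sets of this kind were those of Rpl4, Rpl22, Rpl28, Rpl30, Rpl35a, Rpl39, a second one each of Rpl7 and Rpl14, 2 of Rpl7l1, and those of Rpl3l, Rpl26l1, Rpl39l1 and the pseudogene Rpl37-ps2. The small-subunit ones were those of Rps3, which lines the mRNA entry, Rps3a, Rps13, Rps15, Rps23, which stands at the decoding centre, Rps27l, 2 of Rpsa and the pseudogene Rps4x-ps1. No diet difference can be read for any of these. Rplp1, Rplp2, Rpl10 and Rps4x had no probe set that met the rule.

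Within a group the varying members differed little between rats. Their median residual SD, the spread left after the group means, was 0.118 log2, against 0.22 over all 6323 varying probe sets, and among those above 10 log2 it was 0.116 against 0.214. A residual SD under 0.15 was found for 25 of 34 members, and for 31.1% of all varying probe sets. The range over the 8 rats was between 0.138 for Rpl23 and 1.38 for Rps4y2, with a median of 0.34, against 0.741 over all varying probe sets.

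No ribosomal protein probe set passed the diet comparison at an adjusted p under 0.05 in limma. Over all varying probe sets 4 of 6323 did, 0.0633%. At an unadjusted p under 0.05 in limma, 4 members were higher in L. brevis livers, 11.8% of the 34 against a background of 10.7%, and none was lower, against a background of 13.8%. The values of the 2 groups did not overlap for 3 members, all higher with L. brevis, 8.82% against a background of 4.21%; no member was lower without overlap, against 7.09%. Of the 34 differences, L. brevis minus control in log2, 13 were above 0 and 21 below. Their median was -0.03, against -0.02 over all varying probe sets. Differences within 0.1 log2 made up 58.8% of members and 28.2% of all varying probe sets, and those over 0.25 log2 made up 20.6% and 44.2%.

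**Figure D1:**
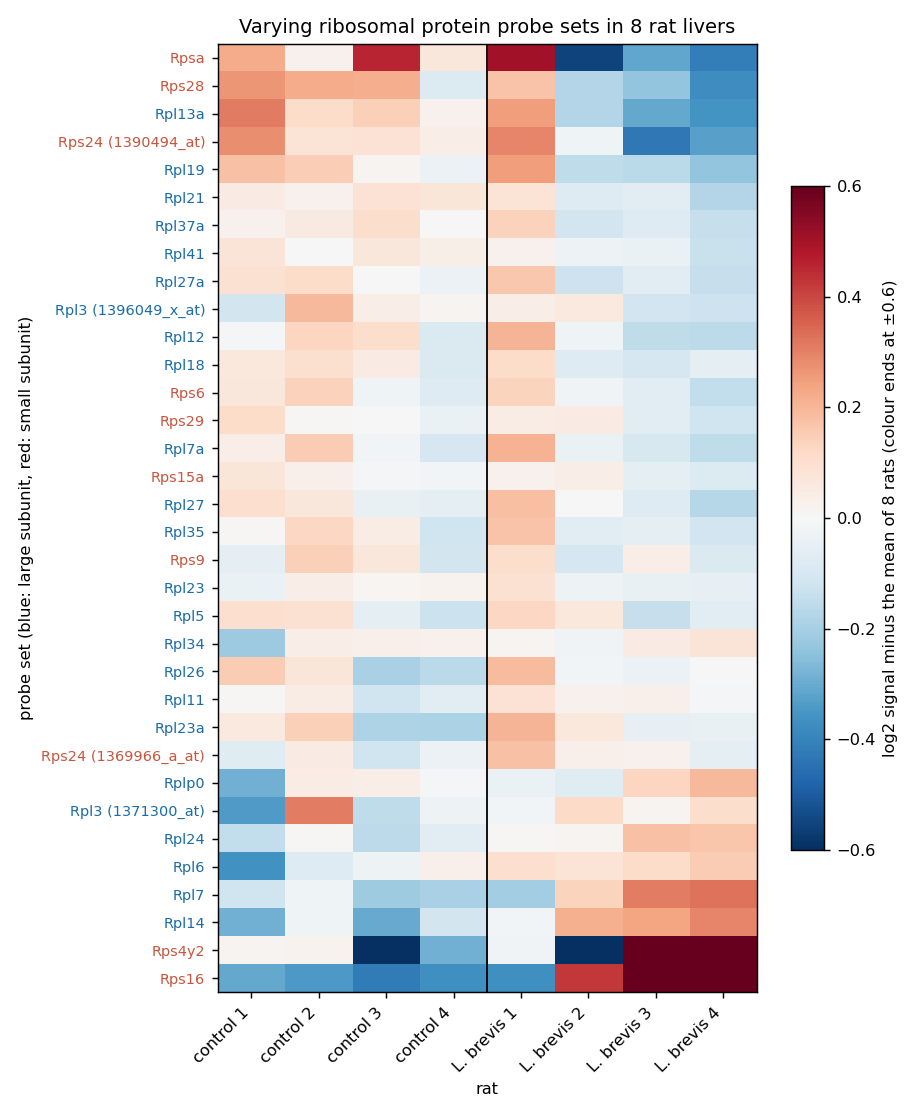
Deviation of each of the 34 varying probe sets (rows, ordered by diet difference, blue names for the large and red for the small subunit) from its mean over 8 rats, in log2, for each rat (columns; colours end at 0.6 either way). L. brevis 1 is above its row mean for most rows in which the other L. brevis rats are below it, and Rps16 at the bottom is high only in L. brevis 2 to 4.

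One rat stood apart from its group in these genes. In L. brevis 1, 19 of 34 members were above all 4 controls, 15 lay within the control range and none was below it; over all varying probe sets 18.8% were above all controls and 20.5% below. In L. brevis 3 and L. brevis 4, by contrast, 17 members each were below all controls and 8 above, while over all varying probe sets 32.4% and 38.3% were below and 28.6% and 30.6% above. L. brevis 2 had 9 of 34 members below all controls and 5 above, against 32.9% and 23.3% of all varying probe sets. L. brevis 1 was the highest of the 8 rats for 16 members, 47.1%, against 11.9% of all varying probe sets. L. brevis 4 was the lowest of 8 for 15 members, 44.1% against 25.0%. The median deviation of the members from their mean over 8 rats was 0.03, 0.06, 0.00 and -0.05 log2 in controls 1 to 4, and 0.11, -0.02, -0.05 and -0.09 in L. brevis 1 to 4.

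The GAPDH array controls also set L. brevis 1 apart from the other L. brevis rats. The 5′ minus 3′ signal of the GAPDH controls, a measure of how far RNA and labelling reach towards the 5′ end, was -2.89, -1.83, -2.93 and -1.98 log2 in controls 1 to 4, -2.20 in L. brevis 1, and -1.30, -0.94 and -0.68 in L. brevis 2 to 4. L. brevis 1 lies among the controls by this measure and the other L. brevis rats lie above them all. With the GAPDH difference as a covariate, no member reached an unadjusted p under 0.05 in limma and the members' median difference was 0.05. The share of all varying probe sets at that limit was not counted in this setting. At an adjusted p under 0.05 in limma, 0 of all varying probe sets passed in it. Since the measure splits most L. brevis rats from the controls, it cannot be told apart from diet, here or where the covariate is used below. The part of RNA quality in the values of single members was not tested further.

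Leaving out L. brevis 1 changed the calls. Then 7 of 34 members passed an adjusted p under 0.05 in limma, 20.6%, while 1146 of 6323 varying probe sets did, 18.1%. That rat was singled out by its values in these same data, so calls without it, here and for single genes below, are description only. No member passed when any other single rat was left out. The 7 were Rps16, Rpl14 and Rpl7, higher with L. brevis, and Rpsa, Rpl13a, Rps28 and Rpl19, lower. Weighting arrays by their fit kept all rats but gave L. brevis 1 the lowest weight, 0.32, and L. brevis 3 the highest, 3.36. The other rats had weights of 0.755 to 1.3, so L. brevis 3 counted most in the L. brevis mean. With these weights 6 members passed, 17.6%, against 24.7% of all varying probe sets. The members' share stayed near the background in both.

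**Figure D2:**
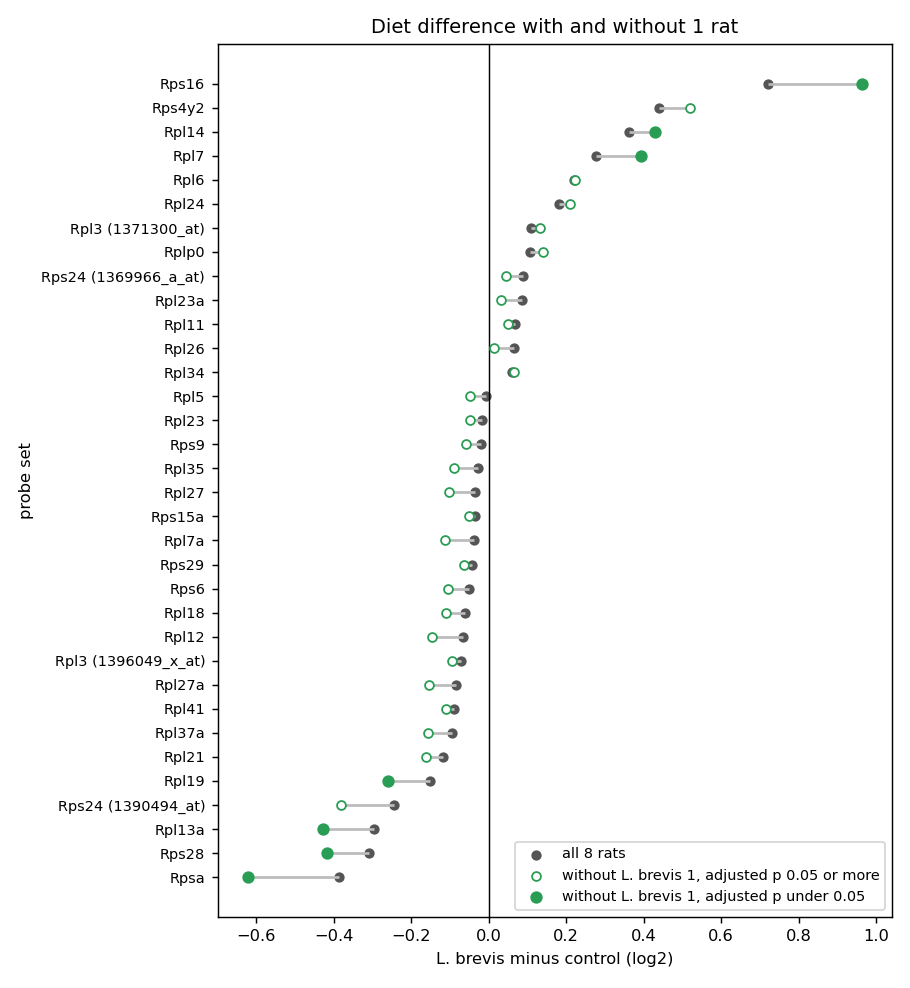
L. brevis minus control in log2 for each varying probe set, with all 8 rats (grey) and without L. brevis 1 (green; filled where the adjusted p is under 0.05). Without that rat 7 probe sets are filled, and Rps16 moves from 0.72 to 0.96.

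In the large subunit, 10 of 24 varying probe sets were higher with L. brevis and 14 lower, with a median difference of -0.02 and a range from -0.30 to 0.36. Rpl14, a protein of the outer face of the subunit, had the smallest p of the members. Its values were 9.82, 10.09, 9.81 and 10.00 log2 in controls 1 to 4 and 10.10, 10.32, 10.35 and 10.40 in L. brevis 1 to 4. The groups did not overlap, although L. brevis 1 stood just above control 2. The difference was 0.36 ± 0.10 (SE), or 1.29-fold, with an adjusted p of 0.136 in limma; without L. brevis 1 it was 0.43 with an adjusted p of 0.0307.

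Rpl6, which binds next to Rpl14 on the same face, had values of 11.49, 11.77, 11.82 and 11.88 in controls and 11.95, 11.93, 11.96 and 12.00 in L. brevis rats. All 4 L. brevis rats, L. brevis 1 included, were above the controls and lay within a narrow band, with an SD of 0.03 (n = 4) against 0.17 (n = 4) in controls, where control 1 was the lowest. The difference of 0.22 ± 0.09 had an adjusted p of 0.188 in limma. Rpl24, which joins the large subunit late and takes part in a bridge to the small one, had values of 11.29, 11.45, 11.28 and 11.37 in controls and 11.45, 11.45, 11.61 and 11.61 in L. brevis rats. L. brevis 3 and 4 were clearly above the controls, while L. brevis 1 and control 2 differed in the third decimal. The difference was 0.18 ± 0.07, with an adjusted p of 0.172 in limma. With the GAPDH covariate the differences of Rpl14, Rpl6 and Rpl24 were 0.12, 0.13 and 0.05.

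Rpl7, a large-subunit protein with an RNA-binding domain, was dim on its varying probe set: 7.13, 7.22, 7.03 and 7.05 in controls, 7.03 in L. brevis 1, and 7.38, 7.55 and 7.57 in L. brevis 2 to 4. L. brevis 1 lay with the controls and the other L. brevis rats above them all. The difference was 0.28 ± 0.13 with an adjusted p of 0.221 in limma, and 0.39 with an adjusted p of 0.0282 without L. brevis 1. It was 0.01 with the GAPDH covariate. A second probe set of Rpl7 held 11.76 on every array, so the difference has no check on it.

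Rpl13a, which outside the ribosome takes part in silencing inflammatory mRNAs, ran the other way. Its values were 12.24, 12.04, 12.07 and 11.95 in controls, 12.18 in L. brevis 1, and 11.75, 11.62 and 11.57 in L. brevis 2 to 4. L. brevis 2 to 4 were below every control and L. brevis 1 was above all but control 1. The difference was -0.30 ± 0.14 with an adjusted p of 0.233 in limma, and -0.43 with an adjusted p of 0.0282 without L. brevis 1. The sign turned with the GAPDH covariate, to a difference of 0.04.

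Rpl19, which forms a bridge to the small subunit, had values of 12.65, 12.63, 12.50 and 12.45 in controls, 12.73 in L. brevis 1, and 12.33, 12.32 and 12.24 in L. brevis 2 to 4. L. brevis 1 was the highest of the 8 rats and the other L. brevis rats were the lowest. The difference was -0.15 ± 0.11 with an adjusted p of 0.432 in limma, and -0.26 with an adjusted p of 0.0462 without L. brevis 1. The GAPDH covariate turned the sign here too, to 0.06. Rpl21 and Rpl41, the latter the shortest ribosomal protein, differed by -0.12 ± 0.07 and -0.09 ± 0.05, with adjusted p of 0.295 and 0.321 in limma. L. brevis 2 to 4 were below every control for both.

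**Figure D3:**
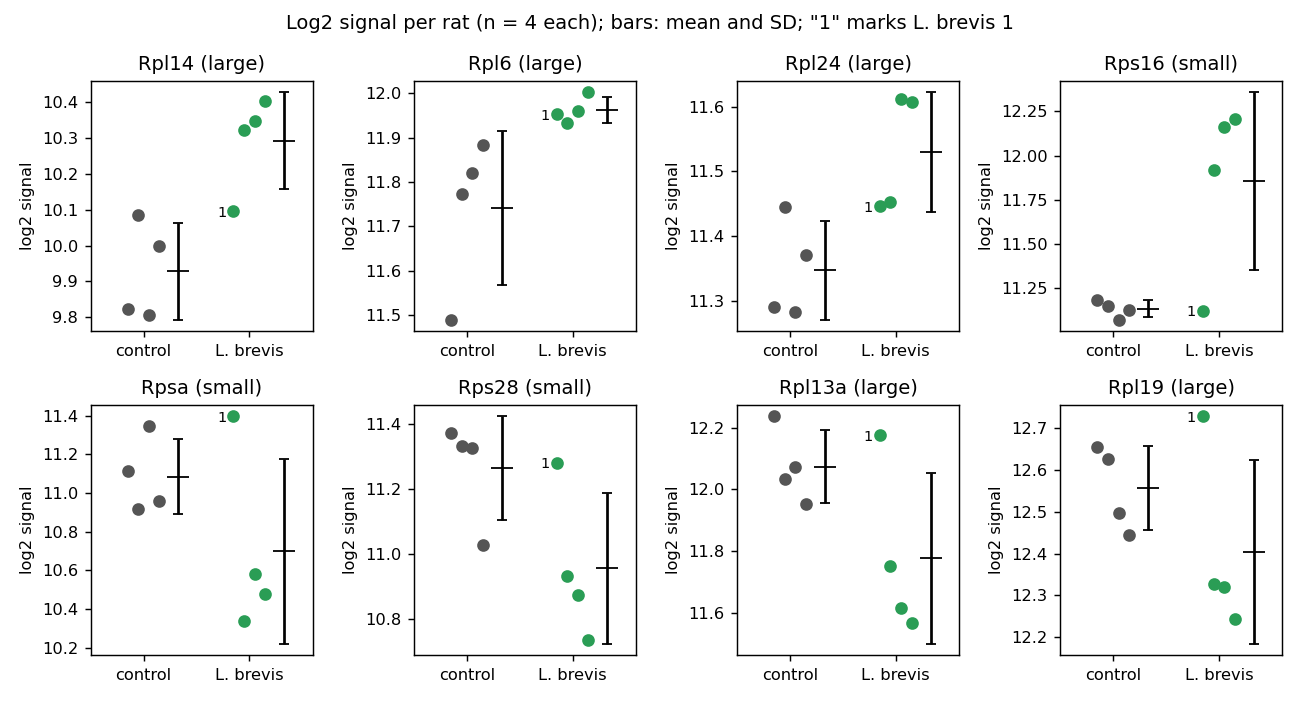
Log2 signal of 8 members in each rat (points, control grey and L. brevis green, rats 1 to 4 from left to right; bars show mean and SD, n = 4), each panel on its own scale that does not start at 0. L. brevis 1, marked 1, lies within or above the control range in all 8 panels, and the groups do not overlap for Rpl14, Rpl6 and Rpl24.

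Rplp0, the base of the stalk that recruits elongation factors, had values of 11.16, 11.49, 11.48 and 11.43 in controls and 11.41, 11.37, 11.58 and 11.64 in L. brevis rats. The groups overlapped, control 1 was the lowest, and the difference of 0.11 ± 0.10 had an adjusted p of 0.530 in limma. Rpl5 and Rpl11 form with 5S ribosomal RNA a particle that can bind Mdm2 when assembly stalls. Rpl5 had values of 12.34, 12.33, 12.18 and 12.11 in controls and 12.36, 12.30, 12.10 and 12.18 in L. brevis rats, a difference of -0.01 ± 0.08. Rpl11 differed by 0.07 ± 0.05, with values from 11.79 to 11.95 in controls and from 11.90 to 12.00 in L. brevis rats, and the groups overlapped for both genes.

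Rpl3, which reaches the peptidyl transferase centre, had 2 varying probe sets of opposite sign. On the plain one the values were 11.24, 11.89, 11.43 and 11.55 in controls and 11.57, 11.70, 11.60 and 11.69 in L. brevis rats, a difference of 0.11 ± 0.13 with an adjusted p of 0.639 in limma. On the other, an x-type probe set that may also bind similar transcripts, the difference was -0.07 ± 0.09, with an adjusted p of 0.650. Neither separated the groups.

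Several large-subunit members sit around the exit of the nascent peptide tunnel. Of these, Rpl23a, which also docks the signal recognition particle, differed by 0.09 ± 0.11, Rpl26 by 0.07 ± 0.10 and Rpl35 by -0.03 ± 0.08. Rpl37a, Rpl27a and Rpl18 were the next in order of p among the lower members. Rpl37a had values of 10.80, 10.83, 10.88 and 10.78 in controls and 10.92, 10.67, 10.70 and 10.64 in L. brevis rats, a difference of -0.10 ± 0.08 with an adjusted p of 0.459 in limma. Rpl27a differed by -0.08 ± 0.08 and Rpl18 by -0.06 ± 0.07, with adjusted p of 0.523 and 0.619. For Rpl37a, L. brevis 1 was the highest rat and the other L. brevis rats were the lowest. The other varying large-subunit members (Rpl7a, Rpl12, Rpl23, Rpl27 and Rpl34) differed by between -0.07 for Rpl12 and 0.06 for Rpl34. None of these 8 had an adjusted p under 0.4 in limma, and the groups overlapped for each.

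In the small subunit, 3 of 10 varying probe sets were higher with L. brevis and 7 lower, with a median of -0.04 and a range from -0.39 to 0.72. Rps16, whose tail reaches a tRNA bound to the ribosome, had the largest difference of all members. Its values were 11.19, 11.15, 11.07 and 11.13 in controls, 11.12 in L. brevis 1, and 11.92, 12.16 and 12.21 in L. brevis 2 to 4. L. brevis 1 was at the control level and the other L. brevis rats were above every control, so the groups overlapped through 1 rat. The difference was 0.72 ± 0.23, or 1.65-fold, with an adjusted p of 0.149 in limma; without L. brevis 1 it was 0.96, or 1.95-fold, with an adjusted p of 0.0117. The GAPDH measure above splits the rats the same way, and with it as a covariate the difference of Rps16 was 0.24.

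Rpsa, a protein of the small subunit's back that also serves as a laminin receptor, had values of 11.12, 10.92, 11.35 and 10.96 in controls, 11.40 in L. brevis 1, and 10.34, 10.58 and 10.48 in L. brevis 2 to 4. L. brevis 1 was the highest of all rats and the other L. brevis rats were the lowest. The difference was -0.39 ± 0.24 with an adjusted p of 0.334 in limma, and -0.62 with an adjusted p of 0.0283 without L. brevis 1. The sign of Rpsa turned with the GAPDH covariate, to 0.15. This is an s-type probe set, shared by transcripts of similar sequence, and the other 2 probe sets of Rpsa held 1 value throughout.

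Rps28, which lies at the exit of the mRNA channel, had values of 11.37, 11.33, 11.33 and 11.03 in controls, 11.28 in L. brevis 1, and 10.93, 10.87 and 10.74 in L. brevis 2 to 4. L. brevis 2 to 4 were below every control, and control 4 was the lowest control. The difference was -0.31 ± 0.13 with an adjusted p of 0.209 in limma, and -0.42 with an adjusted p of 0.0433 without L. brevis 1. With the GAPDH covariate the difference was -0.02.

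Rps24, a gene mutated in some patients with Diamond-Blackfan anaemia, had 2 varying probe sets of opposite sign. On the dimmer one the values were 7.34, 7.15, 7.15 and 7.11 in controls, 7.36 in L. brevis 1, and 7.04, 6.64 and 6.74 in L. brevis 2 to 4, a difference of -0.24 ± 0.16. On the other, an a-type probe set, the difference was 0.09 ± 0.07, with L. brevis 1 the highest rat at 11.65. Adjusted p were 0.364 and 0.438 in limma, so neither sign is set for this gene. Both differences were above 0 with the GAPDH covariate, 0.10 and 0.13.

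Rps4y2, a near copy of Rps4x, had the widest spread of the members. Its values were 7.85, 7.85, 7.20 and 7.54 in controls and 7.81, 7.23, 8.58 and 8.58 in L. brevis rats. L. brevis 3 and 4 were above every other rat, and L. brevis 2 was close to the lowest control. The difference was 0.44 ± 0.33, with an adjusted p of 0.431 in limma, and -0.01 with the GAPDH covariate.

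Rps6, the substrate of the S6 kinases, differed by -0.05 ± 0.08, with values of 12.30, 12.37, 12.21 and 12.15 in controls and 12.37, 12.21, 12.17 and 12.08 in L. brevis rats. Rps9, at the mRNA entry, Rps15a and Rps29 differed by between -0.02 and -0.04. The groups overlapped for all 4 genes, and no adjusted p among them was under 0.6 in limma.

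**Figure D4:**
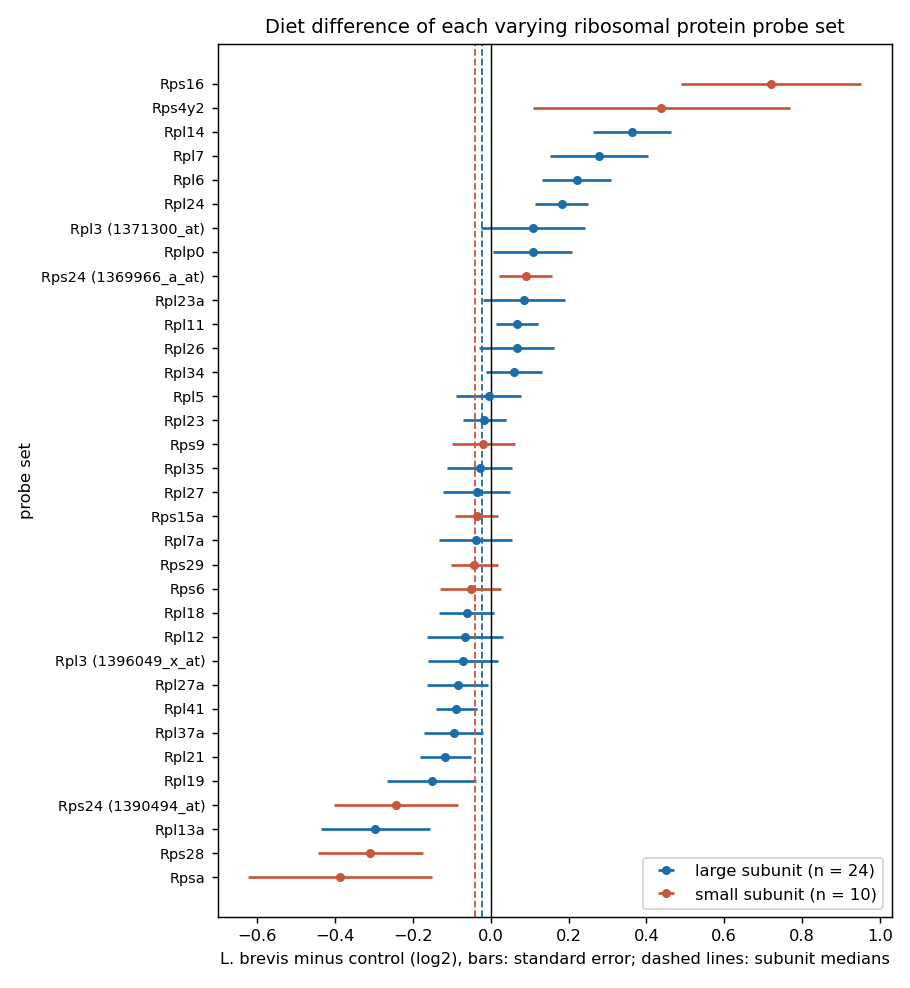
L. brevis minus control in log2 for the 34 varying probe sets (points; bars are standard errors), blue for 24 of the large and red for 10 of the small subunit, with each subunit's median as a dashed line. The medians, -0.02 and -0.04, nearly coincide, and the small-subunit points reach further to both sides, from Rpsa at -0.39 to Rps16 at 0.72.

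Set side by side, the subunits had nearly the same median difference, 0.02 log2 apart, and the same mean of 0.02. Differences over 0.25 log2 were found for 3 of 24 large-subunit probe sets and 4 of 10 small-subunit ones. The median residual SD was 0.118 in the large and 0.154 in the small subunit. No test was made of the large against the small subunit, since the members are not replicates. Without L. brevis 1, 4 of 24 large-subunit and 3 of 10 small-subunit probe sets passed the adjusted threshold in limma, 16.7% and 30.0% against 18.1% of all varying probe sets, and the medians lay 0.01 apart with the small subunit higher.

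Genes that work with the ribosome were described from lists drawn up by function, 1 probe set per gene, and none of them passed an adjusted p under 0.05 in limma with all rats. Given with values below are the 8 genes at an unadjusted p under 0.05 in limma. They were 1 higher and 1 lower of 13 varying elongation and TOP genes, and 1 higher and 3 lower of 11 other initiation factors. Of 27 biogenesis factors 0 were higher and 1 lower, of 5 polymerase I genes 0, and of 8 mTORC1 genes 1 was higher. The background over all varying probe sets was 10.7% higher and 13.8% lower. Of elongation factors and other genes with TOP mRNAs, 13 of 16 measured genes varied, 2 higher and 11 lower with L. brevis, with a median of -0.06. In that list Eif3l, a subunit of the initiation factor that binds the small subunit, had values of 6.28, 6.72, 6.11 and 6.44 in controls, 6.45 in L. brevis 1, and 7.46, 7.33 and 8.14 in L. brevis 2 to 4. Only L. brevis 1 lay among the controls, and the difference was 0.96 ± 0.34 with an adjusted p of 0.161 in limma. Eif3k, another subunit of that factor, differed by -0.27 ± 0.11. With the GAPDH covariate the differences of Eif3l and Eif3k were 0.14 and -0.05, and the median of the list turned to 0.03.

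Of the other initiation factors 11 of 25 varied, 7 higher and 4 lower, with a median of 0.12. The scaffold Eif4g1 differed by -0.44 ± 0.16, Eif3d, which can bind the mRNA cap, by -0.40 ± 0.10, and Eif2b4, part of the exchange factor for eIF2, by -0.53 ± 0.21, while Eif3m differed by 0.29 ± 0.12. These 4 had adjusted p between 0.125 and 0.193 in limma. Given the GAPDH covariate, they were -0.13, -0.20, -0.22 and 0.08 in the same order, and the median of the list was 0.04. Subunits of the same factor, eIF3, were thus on both sides of 0.

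Ribosome biogenesis factors, the nucleolar proteins that process ribosomal RNA and assemble subunits, were mostly lower: 24 of 27 varying genes, of 48 measured, with a median of -0.23, against -0.02 over all varying probe sets. Among them Wdr12, needed for the large subunit's ribosomal RNA, differed by -0.23 ± 0.08 with an adjusted p of 0.168 in limma. The list's median deviation was 0.20, 0.10, 0.18 and -0.04 in controls 1 to 4, 0.18 in L. brevis 1, and -0.02, -0.24 and -0.29 in L. brevis 2 to 4. With the GAPDH covariate the median difference of the list was 0.04 and that of Wdr12 alone -0.10. Of the RNA polymerase I genes, which make ribosomal RNA, 5 of 14 varied, 1 higher and 4 lower, with a median of -0.31. That median was -0.01 with the covariate and -0.05 with all probe sets of a gene, so it depended on the probe sets used. The varying genes were Polr2e, Polr2h, Rrn3, Taf1d and Ubtf, while Polr1a to Polr1e held 1 value throughout. Of the mTORC1 pathway genes 8 of 19 varied, 4 each way; Deptor, an inhibitor of mTOR, differed by 0.61 ± 0.18 with an adjusted p of 0.138 in limma, and by 0.32 with the covariate. Rack1, a protein of the small subunit outside the symbol rule, held 1 value throughout.

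**Figure D5:**
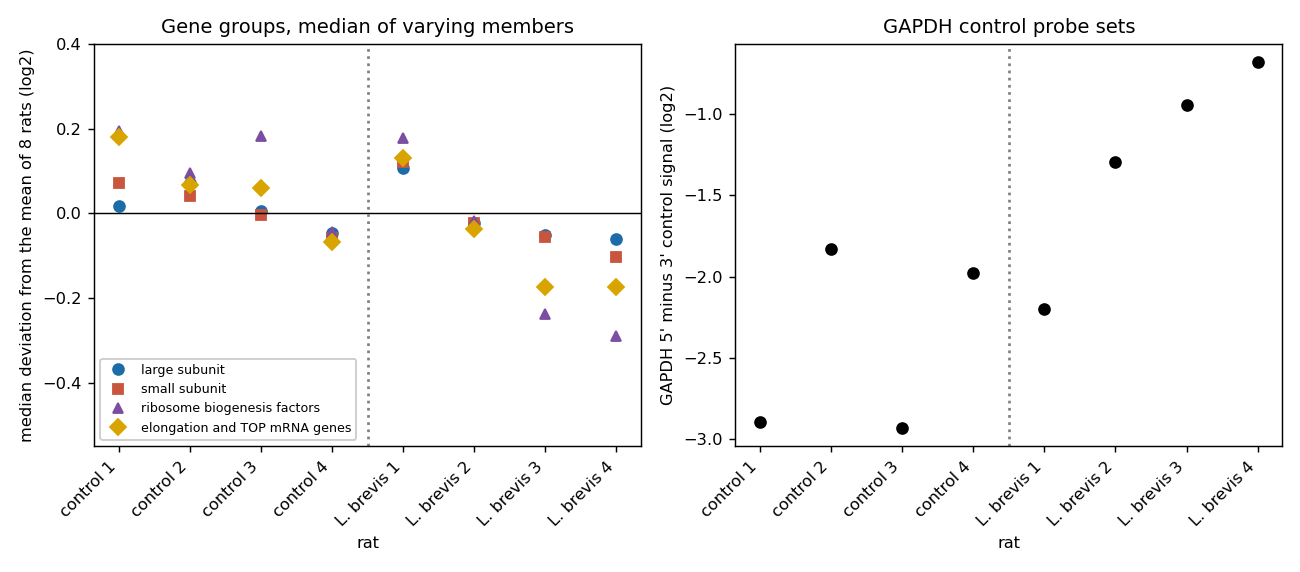
Left, the median deviation in log2 from the mean of 8 rats of the varying genes of each group in each rat: large subunit, small subunit, ribosome biogenesis factors, and elongation and TOP genes. Right, the 5′ minus 3′ GAPDH control signal in log2 per rat. L. brevis 1 is above 0 in all 4 groups and lies among the controls on the right, where L. brevis 2 to 4 are above them.

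Markers of the cells in liver were set beside these values. Of the hepatocyte markers 8 of 9 measured varied, with a median difference of 0.00 and summed log2 levels of 101 to 103 in controls and 102 to 104 in L. brevis rats. Array signals have no true zero, and no listed marker was at 0. Of the Kupffer cell and macrophage markers 8 of 9 varied, 6 higher and 2 lower with L. brevis, with a median difference of 0.08 and sums of 71.0 to 74.6 and 72.5 to 75.0. Of these 8, Adgre1 and C1qb were higher at an unadjusted p under 0.05 in limma, against a background of 10.7% of varying probe sets. Their differences were 0.65 ± 0.16 and 0.73 ± 0.26, with adjusted p of 0.125 and 0.163 in limma. The 2 lower ones were Cd163 and Lyz2, with differences of -0.158 ± 0.115 and -0.287 ± 0.327. All 6 varying of 8 endothelial markers were lower with L. brevis, with a median of -0.43 and sums of 52.0 to 55.7 against 50.3 to 51.4. Of these 6, Kdr, Pecam1 and Stab1 were lower at an unadjusted p under 0.05 in limma, against a background of 13.8%. Their adjusted p were 0.116 to 0.155 in limma. Skeletal muscle markers stood out in L. brevis 2 alone, with a median deviation of 1.5, as did erythroid ones with 1.36, while that rat was near the middle for the ribosomal proteins. The part of cell makeup in the ribosomal protein values was not tested, and in bulk tissue fewer cells of a type and less RNA per cell cannot be told apart.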

How the data were processed

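The values are the authors' deposited table, 1 log2 value per probe set and array of 31099, normalized by a method not given in the sources used here. Of 31042 non-control probe sets, 24719 held 1 value on all arrays within 0.01 log2. Precision is limited by 8 arrays; the labels call them biological replicates and name no batch. Genes came from the platform annotation, with symbols updated through gene identifiers, which were lacking for 2 members. L. brevis minus control was fitted in R 4.3.3 by limma 3.58.1 to the 6323 varying probe sets (lmFit, then a trended eBayes), two-sided, Benjamini-Hochberg adjusted over all of them, with a threshold of 0.05. The script was tested on simulated data, with each varying probe set's own residual SD as noise. Of 200 probe sets shifted there by 0.3, 0.5 or 1 log2, 3%, 32% and 69.5% passed the adjusted threshold. Members named with values were the 10 smallest p in each direction, the widest spreads, those with a set role, and genes whose probe sets disagree. Genes of the related lists were given with values where their unadjusted p was under 0.05 in limma. Members, lists and tests were chosen with earlier results of these data known. The 36 probe sets of several genes were left out of the main values.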

Additional observations from a re-analysis of the deposited data

Results flagged for a closer look

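In 4 of 68 groups of 4 rats, 1 value lay far from the other 3 by Dixon's criterion, which chance alone passes in about 1 in 20 groups. Rpl23 was 11.54 log2 in L. brevis 1 and 11.41 to 11.42 in the other L. brevis rats. Rpl26 was 12.53 in L. brevis 1 and 12.30 to 12.34 in the others. Rpl34 was 11.56 in control 1 and 11.81 to 11.83 in the other controls. Rps28 was 11.03 in control 4 and 11.33 to 11.37 in the other controls.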

How the results depend on the processing

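The adjusted call of 0 members held in 16 of the 18 settings applied to all probe sets, and moved to 6 with array weights and to between 0 and 7 when single rats were left out, 7 without L. brevis 1. Unadjusted, 4 of 34 members became 12 with array weights, and 0 with the GAPDH covariate or without L. brevis 3 and 4 together. With 1 rat left out they were 2 to 12: 12 without L. brevis 1, 2 without L. brevis 3 or 4. Adding the 26 varying probe sets of several genes in the main fit, after seeing the data, gave 14. These were 4 members, 11.8% of the 34, and 10 of the 26, 38.5%, all higher with L. brevis. The 4 calls over all varying probe sets became 0 with median centring, the GAPDH covariate or without L. brevis 3 and 4, 44 over all non-control probe sets, 1 with a range above 0.1, 1561 with array weights, and 0 to 1146 with 1 rat left out, 1146 without L. brevis 1. The labels do not say that replicate numbers pair rats. Same-numbered rats' deviations correlated by 0.359, 0.203, 0.0778 and 0.381, all above 0, but that of number 3 was below the 0.1 required of every pair, so pairing is not settled. With the replicate number as a block, 0 of those calls were made, and related genes at an unadjusted p under 0.05 went from 8 to 20; members kept 0 adjusted calls. The related genes were 2 with the GAPDH covariate and 2 to 27 with 1 rat left out (27 without L. brevis 1, 17 without control 4, 2 without control 3). In the main fit, the background at that unadjusted limit was 10.7% of varying probe sets higher and 13.8% lower. It was not counted in the other fits, so the unadjusted counts of members and related genes there have no background beside them. The members' median of -0.03 became -0.115 with quantile normalization and 0.0487 with the GAPDH covariate. Leaving out 1 rat gave -0.0612 to 0.00498. The large minus small median of 0.0169 became -0.0199 with probe sets of several genes and -0.00875 to 0.0341 with 1 rat left out. The cause of these shifts was not tested.

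The sign was the same in all 18 settings for 8 of 34 probe sets (Rpl14, Rpl6, Rpl24, Rpl7, Rps16, Rps28, Rpl21, Rpl41) and turned in at least 1 for 26. In what follows, Rpl3 is the plain probe set with the GAPDH covariate and the x-type one without L. brevis 3 and 4. Rps24 is the a-type probe set with quantile normalization and the dimmer one elsewhere. With the GAPDH covariate the turned differences were Rpl12 0.101, Rpl13a 0.0384, Rpl18 0.039, Rpl19 0.0632, Rpl23 0.0214, Rpl27 0.111, Rpl27a 0.0338, Rpl3 -0.127, Rpl34 -0.0256, Rpl35 0.0918, Rpl37a 0.0336, Rpl5 0.1, Rpl7a 0.0949, Rplp0 -0.0555, Rps15a 0.0161, Rps24 0.103, Rps29 0.0546, Rps4y2 -0.0137, Rps6 0.0497, Rps9 0.0315 and Rpsa 0.147. With median centring they were Rpl23 0.0206, Rpl27 0.000827, Rpl35 0.00871, Rpl5 0.0313, Rps15a 0.000625 and Rps9 0.0177. With quantile normalization they were Rpl11 -0.012, Rpl23a -0.0038, Rpl26 -0.00268, Rpl34 -0.018, Rplp0 -0.0162 and Rps24 -0.032. Without L. brevis 3 and 4 they were Rpl12 0.0567, Rpl23 0.0212, Rpl27 0.0707, Rpl3 0.0136, Rpl35 0.0408, Rpl5 0.0919, Rpl7a 0.0645, Rplp0 -0.00176, Rps15a 0.0139, Rps24 0.0116, Rps29 0.0267, Rps4y2 -0.0933 and Rps6 0.0301. With 1 rat left out, ranges that crossed 0 were Rpl27 -0.102 to 0.0153, Rpl34 -0.00362 to 0.0839, Rpl35 -0.0904 to 0.00802, Rpl5 -0.0494 to 0.0399, Rpl7a -0.114 to 0.00551 and Rps9 -0.0594 to 0.0251.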

Other observations

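Probe sets that the annotation gives to several genes, a ribosomal protein gene and its near copies or pseudogenes, fell outside the rule, and 26 of 36 varied. Of these, 15 were higher and 11 lower with L. brevis, with a median difference of 0.03. At an unadjusted p under 0.05 in limma 10 were higher, 38.5% of the 26, against 10.7% of all varying probe sets, and none was lower; none passed the adjusted threshold, and without L. brevis 1 6 of 26 did, against 18.1% of all varying probe sets in that setting. The 10 include probe sets shared by Rpl10a, by Rpl8, by Rpl15, by Rps13 and by Rps2 with their copies, with differences of 0.60 ± 0.12, 0.51 ± 0.11, 0.42 ± 0.08, 0.49 ± 0.12 and 0.38 ± 0.15 log2. Signals of copies and parent genes cannot be told apart on such probe sets, and these 5 were chosen after their values were seen. The 5S ribosomal RNA control of the array was 7.08, 6.86, 6.97 and 7.00 log2 in controls and 7.42, 6.80, 7.12 and 7.10 in L. brevis rats, highest in L. brevis 1.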
